A study of Mus musculus with 6 samples.

Results

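Smooth muscle of the descending aorta that had lost a single copy of Jag1 was compared with wildtype smooth muscle, in mouse embryos at embryonic day 14.5, across all genes read by RNA sequencing. The members of the comparison were 4 of the 6 libraries of the study, 2 heterozygous and 2 wildtype, and 15116 genes. These genes were taken from the 37309 of the deposited table by 2 conditions: at least 2 of the 6 libraries reached a scaled read count of 10, and the gene did not lie on chromosome X or Y. Jag1 encodes a ligand that sits in the membrane of one cell and binds Notch receptors on its neighbour; the receptor is then cut, and its inner part moves to the nucleus, where it joins the DNA-binding protein Rbpj and turns on targets such as the Hes and Hey repressors. In arteries this signal passes between endothelium and smooth muscle and from one smooth muscle layer to the next, and it helps to set up and keep the contractile state. In humans, loss of a single copy of JAG1 causes Alagille syndrome, which affects bile ducts, heart and arteries.

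Wildtype libraries came from smooth muscle with both Jag1 alleles floxed and no Cre, labelled JAG1 lox/lox Cre- SMC. The heterozygous ones came from smooth muscle with 1 floxed allele, 1 allele without lox sites and Cre, labelled JAG1 lox/+ Cre+ SMC. Cre is the recombinase that cuts out DNA between lox sites. The knockout libraries, JAG1 lox/lox Cre+ SMC, were part of the same fit, where they add to the estimate of the spread, and their values are given beside those of the members. Knockout and heterozygous libraries are set against the same 2 wildtype libraries, so that the comparisons are not independent. Cre and the number of floxed alleles differed between the heterozygous and wildtype groups together with Jag1, so that their effects and that of Jag1 cannot be told apart here. The labels do not name the promoter that drove Cre, the exons removed, whether embryos were pooled, or whether the 2 libraries of a group came from separate animals, so that p values measure only the spread between these libraries, which may be technical.

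Every group had 2 libraries, and the reads in genes ranged from 17323962 to 28123670 per library. The values are scaled read counts, that is, reads per gene divided by 1 size factor per library. Log2 changes are heterozygous minus wildtype on log2(scaled count + 1), ± SE, with Benjamini-Hochberg adjusted p values from limma, and a gene is said to rise or fall where the adjusted p was under 0.05. The 2 libraries of a genotype differed from each other by more than counting error, with a mean chi-square per gene of 3.75 for the heterozygous pair, 5.07 for the wildtype pair and 23.5 for the knockout pair. This spread enters every count of genes below: leaving out 1 of the 4 compared libraries lowered such counts, and leaving out 1 knockout library raised them, and both values are given with most groups of genes. Of 330 genes that passed and are in a gene list or named below, 114 passed under all 18 alternative settings, and full statistics are given mainly for these.

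The labelled tissue was checked first. Per kilobase of gene, Acta2, the smooth muscle actin, ranked 7th of the 15116 genes in wildtype, and Tagln, which encodes transgelin, ranked 18th. The scaled counts of Acta2 were 120179 and 111134 in wildtype, 104381 and 103199 in heterozygous and 90704 and 79074 in knockout, and those of Tagln 60626 and 55307 in wildtype, 56264 and 54086 in heterozygous and 48281 and 50458 in knockout. Myh11, the smooth muscle myosin heavy chain, was at 3851 and 3512 in the wildtype libraries and ranked 1797th. Of the other smooth muscle markers chosen, Cnn1 ranked 190th, Des 722nd, Lmod1 869th and Smtn 1994th. Myocd was low, at 62.7 and 66.9 in wildtype, and ranked 14097th. Elastin, which the aortic wall lays down in quantity from this stage on, was low as RNA: Eln was at 119 and 116 in wildtype, 109 and 84.2 in heterozygous and 58 and 19.6 in knockout. Among other cell types, the endothelial cadherin Cdh5 was at 8.52 to 13.4 in all 6 libraries. In all, 7 red cell genes, among them the globins Hba-a1, Hba-a2, Hbb-b1 and Hbb-b2, were at 0 in the 4 compared libraries. These globins have near-identical copies, so that their zeros are uncertain. Macrophage genes were not absent: Lyz2, lysozyme 2, was at 15912 and 16929.6 in wildtype, 36822 and 33208 in heterozygous and 6734 and 7141 in knockout, uncertain because its near-identical copy Lyz1 may share its reads. In bulk RNA, fewer cells of a type and less RNA per cell cannot be told apart.

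Jag1 itself was at 1965 and 1885 in wildtype, 492 and 584 in heterozygous and 19.9 and 35.4 in knockout. All 6 libraries followed their labels, with no overlap between groups. Heterozygous Jag1 was 28% of wildtype (log2 change -1.84 ± 0.23, adjusted p = 0.00129); it passed in all 18 alternatives, with log2 changes from -1.97 to -1.72. Jag1 lies on chromosome 2. Of its 10 nearest tested neighbours, 5 on each side in the gene order of GRCm38, only Ism1, which encodes the secreted protein isthmin, passed: its counts were 51.9 and 47 in wildtype, 159.7 and 155 in heterozygous and 86.1 and 85.5 in knockout (log2 change 1.65 ± 0.17, adjusted p = 0.00051).

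Of 32 tested ligands, receptors and modifiers of the Notch pathway, Jag1 included, 3 rose (9.38%, against 5.35% of all genes). Jag1 alone fell (3.12%, against 2.72%). Dlk1, a transmembrane relative of the canonical ligands, was at 205 and 188 in wildtype, 713 and 648 in heterozygous and 2869 and 2203 in knockout. Heterozygous Dlk1 was 3.46-fold the wildtype level (log2 change 1.79 ± 0.14, adjusted p = 0.000159). Its relative Dlk2 went from 37.2 and 36.6 to 82.1 and 86.6, and Rbpj, the DNA-binding partner of the cut receptor, from 2886 and 2859.8 to 3487 and 3739. The receptor Notch3, itself a Notch target in smooth muscle, was at 387 and 322 in wildtype, 421 and 403 in heterozygous and 346 and 251 in knockout and did not pass (log2 change 0.22 ± 0.17, adjusted p = 0.599). Of 11 Notch targets tested, 3 fell (27.3%) and 1 rose (9.09%), with a median log2 change of -0.19 against 0.00 over all genes. The background over all 15116 genes was 5.35% that rose and 2.72% that fell. The Hey repressor Heyl was at 15.5 and 18.8 in wildtype, 2.74 and 1.2 in heterozygous and 1.81 and 3.67 in knockout, which is few reads, and Hey2 at 82.1 and 93 in wildtype, 42 and 36.1 in heterozygous and 69.8 and 57.4 in knockout (log2 change -1.15 ± 0.21, adjusted p = 0.00969). Bhlhe40, a repressor of the same protein class, went from 2903 and 2699 to 2209.7 and 2061, and the cyclin gene Ccnd1 from 4456 and 4423 to 6013 and 6097. Hes1 (log2 change -0.19 ± 0.11, adjusted p = 0.465) and Hey1 (log2 change -0.49 ± 0.27, adjusted p = 0.416) did not pass. The calls on Dlk2, Rbpj, Heyl, Hey2, Bhlhe40 and Ccnd1 were lost without each of the 4 compared libraries in turn (adjusted p 0.0703 to 0.409). Leaving out 1 compared library left 0 of Notch targets that rose and 0 that fell, and leaving out 1 knockout library gave 1 and 4. For ligands, receptors and modifiers the counts were 1 up and 1 down without 1 compared library and 7 to 8 and 2 without 1 knockout library.

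Over all genes, 1219 of 15116 passed (8.06%), of which 808 rose and 411 fell. A further measure, groups whose values did not overlap, held for 8318 genes (55%), so that it says little about any one gene. At least 2-fold changes in mean were found for 316 genes that rose (2.09%) and 121 that fell (0.8%). Leaving out 1 of the 4 compared libraries left 301 to 395 genes. Leaving out knockout replicate 1 or 2 gave 2872 or 2889. The authors' deposited table had 1086 genes at its own adjusted p under 0.05, of which 734 were higher in heterozygous. Of these, 1084 were tested here and 1038 were among the 1219, which is 95.8% of the 1084 and 85.2% of the 1219.

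**Figure D1:**
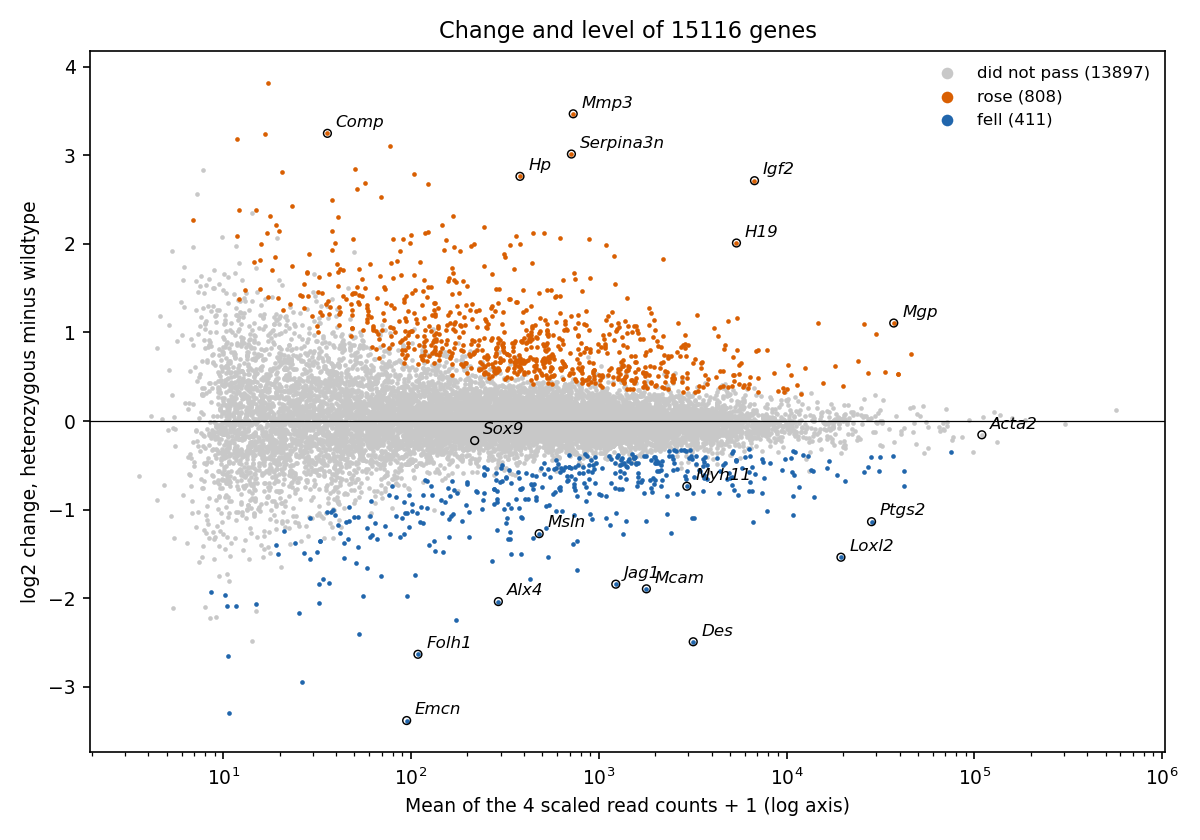
Log2 change of each of 15116 genes (y axis) against the mean of the 4 compared scaled counts plus 1 (x axis, log). Orange points rose (808), blue points fell (411) and grey points did not pass (13897); circles mark named genes, with Jag1 at -1.84, Des at -2.49 and Mmp3 at 3.47, and Acta2 and Sox9 near 0.

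The 15 largest rises among genes that met the naming rule began with Mmp3, stromelysin, which rose from 108 and 134 to 1393 and 1286 (log2 change 3.47 ± 0.19, adjusted p = 4.69e-05). They also held Comp, a cartilage matrix protein, Clec11a, a bone growth factor (from 23.2 and 9.41 to 126 and 145), and Serpina3n, a secreted protease inhibitor (from 143 and 170.4 to 1345 and 1199; log2 change 3.01 ± 0.13, adjusted p = 1.17e-05). Fhl5, a LIM domain gene, went from 10.8 and 11.5 to 74.8 and 99.8, the coagulation factor gene F5 from 10.1 and 19.9 to 95.8 and 98.6, the macrophage scavenger receptor Marco from 12.4 and 14.6 to 95.8 and 80.6 and the gap junction gene Gjb2 from 55 and 47 to 227 and 254. Lbp, Hp, C4b and Igf2 are described with their groups below. Sncaip went from 6.19 and 16.7 to 60.2 and 64.9 and Gprin3 from 17 and 9.41 to 63.9 and 69.7. The largest fall was that of Emcn, endomucin, at 172 and 171 in wildtype, 20.1 and 12 in heterozygous and 9.06 and 11 in knockout (log2 change -3.38 ± 0.30, adjusted p = 0.000288). Folh1, a membrane carboxypeptidase, fell from 173 and 201 to 28.3 and 30.1, Xirp2, an actin-binding protein of striated muscle, from 79 and 96.2 to 12.8 and 19.2, Vat1l from 279 and 289.5 to 65.7 and 52.9, Mcam, an adhesion molecule of vessel walls, from 2839 and 2815 to 746 and 773, and Alx4, a homeobox gene of limb and skull mesenchyme, from 478 and 458 to 127 and 101. Ccdc81, the receptor gene Gpr149 and the polarity gene Crb2 also fell, with log2 changes of -1.97, -1.78 and -1.75. Hoxc10 went from 50.3 and 51.2 to 15.5 and 8.42, Nkain3 from 43.3 and 59.6 to 18.2 and 10.8 and Rspo1 from 55 and 57.5 to 14.6 and 15.6. Hoxc10 and Nkain3 did not pass without heterozygous replicate 2 or wildtype replicate 1 or 2 (adjusted p 0.059 to 0.144), nor did Sncaip and Gprin3 without heterozygous replicate 1 or 2 (0.0584 to 0.095) and Rspo1 without wildtype replicate 1 or 2 (0.0516 to 0.0551).

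**Figure D2:**
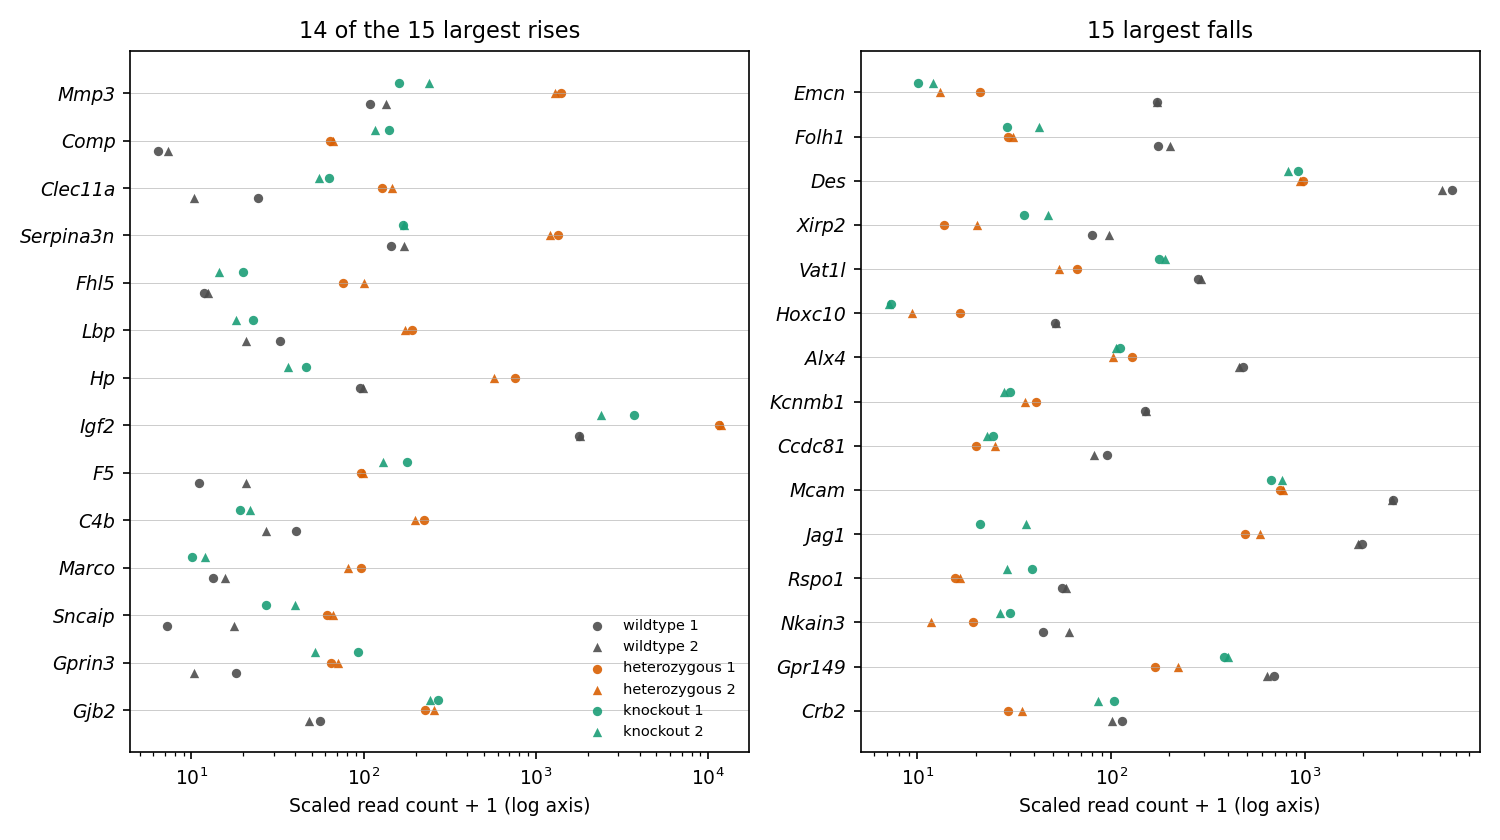
Scaled read counts plus 1 (x axis, log) of 14 of the 15 largest rises (left) and the 15 largest falls (right) in each of the 6 libraries. Circles are replicate 1 and triangles replicate 2. Orange heterozygous points stand apart from grey wildtype points in every row because the naming rule took only such genes. The green knockout points lie beside the heterozygous ones for Emcn, Des and Mcam and near the wildtype ones for Serpina3n, Marco and Crb2.

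By level, the 8 largest gains in scaled count among genes that passed and met the rule were those of Mgp, Grem1, Spp1, Lyz2, Ctsb, Ctsd, Ltbp2 and Fth1. The lysosomal protease Ctsb rose from 32634 and 31486 to 48184 and 44814. Ctsd, another, rose from 32887 and 31629.8 to 48209.8 and 44990.2. The iron store ferritin, Fth1, rose from 18967 and 17951 to 30995 and 27930.3. The 8 largest losses among genes that passed and met it were those of Ptgs2, Col4a1, Loxl2, Vim, Col4a2, Prss23, F2r and Itga5. Ptgs2, the inducible cyclooxygenase that makes prostaglandin precursors, was at 38884 and 39079 in wildtype, 17017 and 18484 in heterozygous and 19986 and 22486 in knockout (log2 change -1.14 ± 0.09, adjusted p = 0.000189). F2r, the thrombin receptor, went from 42195 and 42167 to 31153 and 32795, the fibronectin receptor subunit Itga5 from 32345 and 29771 to 21172 and 20642, and the protease Prss23 from 37452 and 37157 to 24779 and 25572. Without each of the 4 compared libraries in turn, Ctsb, Ctsd, Fth1, F2r, Prss23, Ltbp2, Vim and Col4a2 did not pass (adjusted p 0.0919 to 0.362), nor did Itga5 and Col4a1 without heterozygous replicate 1 or 2 or wildtype replicate 1 (0.0516 to 0.0773).

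**Figure D3:**
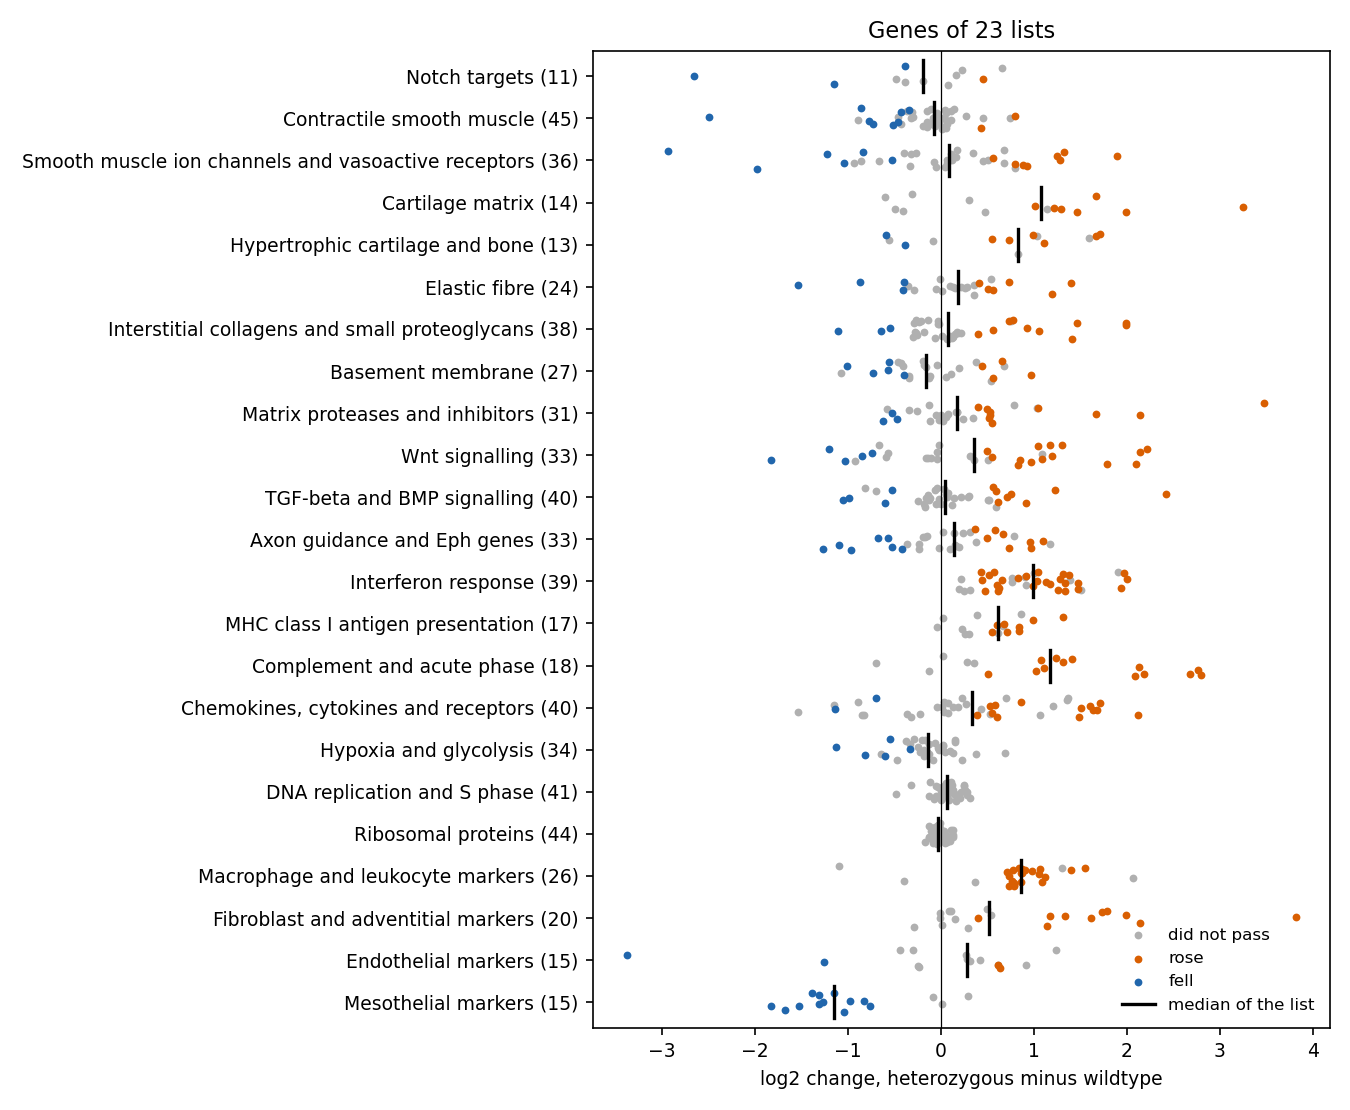
Log2 change (x axis) of each tested gene of 23 lists, with the number tested in brackets. Orange points rose, blue points fell and grey points did not pass; black bars are list medians, highest for complement and acute phase genes (1.17), cartilage matrix (1.08) and interferon response (0.98), and lowest for mesothelial markers (-1.15).

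Genes of the contractile apparatus fell more often than all genes did. Of 45 tested, 8 fell (17.8%, against 2.72%), 2 rose and 35 did not pass, with a median log2 change of -0.07. The largest fall was that of Des, which encodes desmin, the intermediate filament that ties muscle myofibrils together, at 5719.8 and 5098 in wildtype, 974 and 944 in heterozygous and 924 and 814 in knockout. Both wildtype libraries stood far above all 4 libraries with Cre. Heterozygous Des was 17.7% of wildtype (log2 change -2.49 ± 0.10, adjusted p = 1.17e-05). Myh11 was at 3851 and 3512 in wildtype, 2193 and 2222 in heterozygous and 1757 and 1653 in knockout, 60.0% of wildtype (log2 change -0.74 ± 0.09, adjusted p = 0.00124). Actg2, the enteric smooth muscle actin, fell from 6771 and 6525 to 3884 and 3892 (log2 change -0.77 ± 0.08, adjusted p = 0.000536). Cav1, the coat protein of caveolae, fell from 18001 and 18033 to 9616 and 10287 (log2 change -0.86 ± 0.11, adjusted p = 0.0013). Smaller falls were those of the actin-binding calponin Cnn1, from 8810.0 and 8508 to 6259.6 and 6292, of the LIM protein Csrp2, from 828 and 729 to 534 and 547, of the small heat shock protein Hspb1, from 4425 and 3854 to 3276 and 2876, and of vimentin, Vim, from 86083 and 82209.6 to 66756 and 65283. Myh10, a nonmuscle myosin, rose from 13426 and 13297 to 17837 and 18250.3, and the integrin Itga8 from 689.7 and 759.9 to 1196 and 1323. By contrast Acta2 (log2 change -0.16 ± 0.10, adjusted p = 0.519), Tagln (log2 change -0.07 ± 0.09, adjusted p = 0.81) and the actin nucleator Lmod1 (log2 change -0.11 ± 0.14, adjusted p = 0.811) did not pass. The calls on Cnn1, Csrp2, Hspb1, Vim and Myh10 were lost without each of the 4 compared libraries in turn (adjusted p 0.0873 to 0.367), and so was that on Itga8 without heterozygous replicate 2 or wildtype replicate 1 (0.0615 to 0.0735). With 1 compared library fewer, 0 to 1 of the contractile genes rose and 4 fell, and with 1 knockout library fewer 3 and 15.

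Ion channels and receptors that set smooth muscle tone moved in both directions. Of 36 tested, 8 rose (22.2%) and 6 fell (16.7%), against 5.35% and 2.72% of all genes. Kcnmb1, the beta subunit of the calcium-activated potassium channel, was at 149 and 151 in wildtype, 40.1 and 34.9 in heterozygous and 29 and 26.9 in knockout. Heterozygous Kcnmb1 was 25% of wildtype (log2 change -1.97 ± 0.20, adjusted p = 0.000529). Gucy1b3, a subunit of the nitric oxide receptor guanylate cyclase, fell from 380.1 and 419 to 179.7 and 159.9 (log2 change -1.23 ± 0.16, adjusted p = 0.00146). Npr3, the clearance receptor for natriuretic peptides, fell from 2993 and 3231 to 1488 and 1523 (log2 change -1.05 ± 0.09, adjusted p = 0.000235). The potassium channel Kcna5 fell from 37.2 and 52.3 to 9.12 and 2.4. Adra2a, an adrenergic receptor, went from 1026 and 935 to 567 and 527 and Cacna1c, the pore of the L-type calcium channel, from 581 and 585 to 390.5 and 417. Among the rises, Ano1, a calcium-activated chloride channel, rose from 151 and 179.8 to 382 and 403 (log2 change 1.25 ± 0.13, adjusted p = 0.000495). The phosphodiesterase Pde3a rose from 739 and 735 to 1341 and 1459.6 (log2 change 0.92 ± 0.10, adjusted p = 0.000593). Lower down in level, Ace, the angiotensin-converting enzyme, went from 10.8 and 11.5 to 38.3 and 50.5, the endothelin receptor Ednrb from 31 and 27.2 to 78.5 and 69.7 and its ligand Edn1 from 266 and 305 to 436 and 403. The potassium channel Kcnj8, the vasopressin receptor Avpr1a and the G protein regulator Rgs2 rose with log2 changes of 1.28, 0.88 and 0.80. Cacna1c, Ace, Ednrb, Edn1, Kcnj8, Avpr1a and Rgs2 did not pass without each of the 4 compared libraries in turn (adjusted p 0.0644 to 0.36), nor did Kcna5 without heterozygous replicate 2 or wildtype replicate 1 or 2 (0.062 to 0.126) and Adra2a without heterozygous replicate 2 or wildtype replicate 1 (0.0564 to 0.0589). Counts of smooth muscle ion channels and vasoactive receptors without 1 compared library were 2 up and 3 to 5 down, and without 1 knockout library 12 and 9.

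The study's title is about Sox9, the master transcription factor of cartilage, and about a chondrogenic fate of the vessel wall. Sox9 was at 231 and 236 in wildtype, 214 and 188 in heterozygous and 464 and 268 in knockout. The heterozygous values lay just below the wildtype ones and the difference did not pass (log2 change -0.22 ± 0.22, adjusted p = 0.731). Of 19 chondrogenic transcription factors, 3 rose (15.8%) and 2 fell (10.5%), against 5.35% and 2.72% of all genes. Sox6, a partner of Sox9, went from 17 and 21.9 to 39.2 and 44.5, Mef2c from 238 and 224 to 411 and 382, Foxc1 from 1147 and 1118 to 1704 and 1773, Shox2 from 218 and 215 to 102 and 98.6 and Sox11 from 290.3 and 252 to 130.5 and 135. Cartilage matrix genes rose more often, 7 of 14, or 50%, against a background of 5.35%, with none that fell; their median log2 change was 1.08. Comp was at 5.42 and 6.27 in wildtype, 63 and 64.9 in heterozygous and 139 and 115 in knockout, 10.9-fold higher in heterozygous than in wildtype (log2 change 3.25 ± 0.24, adjusted p = 0.000145). Col2a1, the main collagen of cartilage, was at 61.9 and 60.6 in wildtype, 153 and 135 in heterozygous and 272 and 236 in knockout (log2 change 1.22 ± 0.16, adjusted p = 0.00173). Both small proteoglycans on the list also rose, Fmod from 407 and 461 to 1264 and 1139 (log2 change 1.47 ± 0.16, adjusted p = 0.000642). Prelp rose from 420.3 and 457 to 1684 and 1804 (log2 change 1.99 ± 0.19, adjusted p = 0.000389). Aggrecan, Acan, went from 22.4 and 11.5 to 63.9 and 44.5, lubricin, Prg4, from 245 and 258 to 625 and 613, and matrilin 3, Matn3, from 18.6 and 21.9 to 40.1 and 43.3. Genes for the link protein Hapln1, the collagen Col9a1, Cytl1, Lect1 and Ucma were at 0 in the 4 compared libraries. Without each of the 4 compared libraries in turn, Mef2c, Foxc1, Shox2, Prg4 and Matn3 did not pass (adjusted p 0.0568 to 0.247), nor did Sox6 and Sox11 without heterozygous replicate 1 or 2 or wildtype replicate 1 (0.0649 to 0.152) and Acan without heterozygous replicate 1 or 2 or wildtype replicate 2 (0.114 to 0.279). When 1 compared library was left out 0 to 2 of the transcription factors rose and 0 to 1 fell, and when 1 knockout library was, 6 and 4. Among cartilage matrix genes, 4 to 5 rose and 0 fell without 1 of the compared libraries, and 8 and 1 without 1 knockout library.

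The list for hypertrophic cartilage and bone had 13 tested genes, of which 6 rose (46.2%) and 2 fell (15.4%), against 5.35% and 2.72% of all genes. Mgp, matrix Gla protein, an inhibitor of calcification that vessels make, was at 23602 and 23608 in wildtype, 52817 and 48923 in heterozygous and 27032 and 28430.0 in knockout (log2 change 1.11 ± 0.09, adjusted p = 0.000162). Spp1, osteopontin, was at 19258 and 21166 in wildtype, 41925 and 38073 in heterozygous and 54824 and 50961 in knockout (log2 change 0.98 ± 0.10, adjusted p = 0.000417), in an order of wildtype below heterozygous below knockout with no overlap. Mmp13, a collagenase, was at 357 and 349 in wildtype, 1092 and 1154 in heterozygous and 296 and 417 in knockout (log2 change 1.67 ± 0.15, adjusted p = 0.000321), with the knockout libraries near the wildtype ones. Sp7, the bone transcription factor osterix, went from 15.5 and 21.9 to 56.6 and 69.7, the parathyroid hormone receptor Pth1r from 166 and 139 to 290.1 and 222 and the pyrophosphate-making enzyme Enpp1 from 742 and 777 to 1064 and 1157. Ank, which carries pyrophosphate out of cells, fell from 7088 and 7424 to 5528 and 5543, and Col10a1, the collagen of hypertrophic cartilage, from 1389 and 1555 to 937 and 1015. Scx, a tendon transcription factor, rose from 15.5 and 16.7 to 42.9 and 49.3 and was the only 1 of 9 tendon and sclerotome genes to pass. The calls on Pth1r, Enpp1, Ank and Col10a1 were lost without each of the 4 compared libraries in turn (adjusted p 0.0776 to 0.339), and so were those on Scx without heterozygous replicate 1 or 2 or wildtype replicate 1 (0.0587 to 0.0898) and Sp7 without heterozygous replicate 2 (0.0582). Leaving out 1 compared library left 3 to 4 of hypertrophic cartilage and bone genes that rose and 0 that fell, and leaving out 1 knockout library gave 8 and 2. For tendon and sclerotome genes the counts were 0 to 1 up and 0 down without 1 compared library and 4 and 1 without 1 knockout library.

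Elastic fibre genes divided, 6 of 24 rising (25%) and 4 falling (16.7%), against 5.35% and 2.72% of all genes. Loxl2, a lysyl oxidase that crosslinks collagen and elastin, was at 29146 and 28841 in wildtype, 9783 and 10197 in heterozygous and 6652 and 6299.7 in knockout. Heterozygous Loxl2 was 34.5% of wildtype (log2 change -1.54 ± 0.08, adjusted p = 3.7e-05). Ltbp2, which binds to microfibrils, rose from 27982 and 26087 to 39799.8 and 39758, and the fibulin relative Efemp1 from 1763 and 1899 to 3029 and 3055 (log2 change 0.73 ± 0.08, adjusted p = 0.000894). Fbln1, fibulin 1, was at 325 and 317 in wildtype, 905 and 797 in heterozygous and 363 and 307 in knockout (log2 change 1.40 ± 0.13, adjusted p = 0.000288). Mfap4, a microfibril protein, was at 449 and 420.2 in wildtype, 1011 and 974 in heterozygous and 392 and 285 in knockout (log2 change 1.19 ± 0.15, adjusted p = 0.00142). For both, every heterozygous library was above every wildtype and knockout library. Fbn1, the main microfibril protein, fell from 33161 and 31233 to 23668 and 25107. Elastin did not pass (log2 change -0.30 ± 0.41, adjusted p = 0.823). Ltbp2 and Fbn1 did not pass without each of the 4 compared libraries in turn (adjusted p 0.0944 to 0.25). With 1 compared library fewer, 3 of the elastic fibre genes rose and 1 to 2 fell, and with 1 knockout library fewer 12 and 5.

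Of 38 interstitial collagens and small leucine-rich proteoglycans, 10 rose (26.3%) and 3 fell (7.89%), against 5.35% and 2.72% of all genes. Lum, lumican, was at 128 and 140.1 in wildtype, 535 and 533 in heterozygous and 122 and 144 in knockout (log2 change 1.99 ± 0.14, adjusted p = 0.000118). Dcn, decorin, was at 1164 and 1222 in wildtype, 2237 and 2290.4 in heterozygous and 646 and 535 in knockout (log2 change 0.92 ± 0.11, adjusted p = 0.00109). Both are made in quantity by fibroblasts, and for both the heterozygous libraries were the highest of the 6. Col8a2, a short-chain collagen, rose from 51.1 and 50.2 to 135 and 137 (log2 change 1.41 ± 0.17, adjusted p = 0.00131). Col5a3 fell from 1299 and 1206 to 619 and 546, Col6a3 from 6331 and 5834 to 3876 and 3879, and periostin, Postn, from 15158 and 16904 to 10866 and 10954. The abundant fibrillar collagens Col1a1 (log2 change -0.24 ± 0.14, adjusted p = 0.425) and Col3a1 (log2 change -0.14 ± 0.09, adjusted p = 0.454) did not pass. Basement membrane genes had 4 of 27 that rose (14.8%) and 5 that fell (18.5%). Col4a1 and Col4a2, which form its collagen network, fell from 54181 and 50783 to 31834 and 31519 and from 52264 and 48731 to 34510.1 and 33944. Laminin alpha 4, Lama4, rose from 682 and 739 to 1368 and 1421 (log2 change 0.97 ± 0.10, adjusted p = 0.000495). Beside these, fibroblast and adventitial markers rose in 10 of 20 cases (50%) with none that fell, Lum being 1 of them. Pdgfra, the growth factor receptor that marks fibroblasts, was at 427 and 459.9 in wildtype, 1423 and 1296 in heterozygous and 1766 and 1510.5 in knockout (log2 change 1.61 ± 0.11, adjusted p = 0.000118). Dpt, dermatopontin, was at 75.1 and 76.3 in wildtype, 259 and 249 in heterozygous and 67.1 and 63.5 in knockout (log2 change 1.73 ± 0.16, adjusted p = 0.000288). The summed level of the list, including members too low to be tested, was 36349 and 35108 in wildtype, 44532 and 43701 in heterozygous and 37629 and 33268 in knockout. The ratio between heterozygous and wildtype was 1.23. The part of such cells in the rise of matrix genes was not tested. Without each of the 4 compared libraries in turn, Col4a2 did not pass (adjusted p 0.174 to 0.282), nor did Col6a3 and Col4a1 without heterozygous replicate 1 or 2 or wildtype replicate 1 (0.0516 to 0.0744), Postn without heterozygous replicate 1 or 2 or wildtype replicate 2 (0.0769 to 0.0937) and Col5a3 without heterozygous replicate 2 or wildtype replicate 1 (0.0542 to 0.0664). Counts of interstitial collagens and small proteoglycans without 1 compared library were 5 to 7 up and 0 to 2 down, and without 1 knockout library 11 and 10 to 11. When 1 compared library was left out 1 to 2 of basement membrane genes rose and 0 to 3 fell, and when 1 knockout library was, 6 and 7. Among the fibroblast markers, 5 to 8 rose and 0 fell without 1 of the compared libraries, and 11 and 0 to 1 without 1 knockout library.

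Proteases that cut matrix, and their inhibitors, had 10 of 31 that rose (32.3%) and 3 that fell (9.68%), against 5.35% and 2.72% of all genes. Mmp3 was at 108 and 134 in wildtype, 1393 and 1286 in heterozygous and 159 and 237 in knockout. The heterozygous libraries were more than 5 times above any other library. Serpine2, an inhibitor of thrombin and urokinase, rose from 2584 and 2797 to 5745 and 5376 (log2 change 1.05 ± 0.10, adjusted p = 0.000476). Adamts15, an aggrecan-cutting protease, rose from 5.42 and 7.32 to 30.1 and 32.5. Mmp3 is a well-known target of AP-1, the Fos and Jun dimer. Its promoter is shown because it carries that site in capitals, in the window from 76 to 10 bases before the transcription start, chr9:7445746-7445812, plus strand, RefSeq on GRCm38.p6.
Mmp3: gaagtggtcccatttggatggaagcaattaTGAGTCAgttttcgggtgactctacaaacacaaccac
The AP-1 letters TGACTCA were searched on both strands of RefSeq windows from 250 bases before to 50 after the start. They were found in 3 of 8 proteases that rose and had a window (37.5%), Mmp3, Mmp12 and Mmp13, against 453 of 9404 tested genes (4.82%). The share among proteases that did not rise was not counted, and a link between the site and the rise was not tested. The call on Adamts15 was lost without each of the 4 compared libraries in turn (adjusted p 0.103 to 0.194). Leaving out 1 compared library left 3 of matrix proteases and inhibitors that rose and 0 to 1 that fell, and leaving out 1 knockout library gave 14 and 5.

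Growth signals changed at named points. Igf2, an imprinted fetal growth factor, was at 1774 and 1796 in wildtype, 11559 and 11878 in heterozygous and 3686 and 2395 in knockout, 6.57-fold the wildtype level (log2 change 2.71 ± 0.17, adjusted p = 8.33e-05). H19, the noncoding RNA of the same imprinted domain on chromosome 7, was at 2149 and 2153 in wildtype, 8922 and 8424 in heterozygous and 4364 and 2681 in knockout (log2 change 2.01 ± 0.18, adjusted p = 0.000288). In both, the 2 heterozygous libraries were the highest of the 6. Of 26 imprinted genes 5 rose (19.2%) and 3 fell (11.5%), against 5.35% and 2.72% of all genes, so that the rise was not shared by the class. Peg10 fell from 1117 and 1119 to 558 and 638 (log2 change -0.90 ± 0.10, adjusted p = 0.000915). Nnat went from 119 and 123 to 63.9 and 49.3 and the noncoding Meg3 from 8702 and 10195 to 5595 and 5119.6. Igf1 rose from 1192 and 1256 to 2615 and 2801 (log2 change 1.14 ± 0.09, adjusted p = 0.000189). Of 40 growth factors and receptors 7 rose and 7 fell (17.5% each). Fgf10 rose from 1016 and 1026 to 2006 and 2288 (log2 change 1.07 ± 0.12, adjusted p = 0.000685). Its receptor Fgfr2 rose from 975 and 1023 to 1963 and 2038 (log2 change 1.00 ± 0.09, adjusted p = 0.000288). Vegfa, the main growth factor for endothelium, was at 5559 and 5538 in wildtype, 3070.0 and 3242 in heterozygous and 2070.1 and 1892 in knockout (log2 change -0.81 ± 0.09, adjusted p = 0.000642). Its receptor Flt1 fell from 3412 and 3403 to 1317 and 1529 (log2 change -1.26 ± 0.11, adjusted p = 0.000269). Angpt2, which loosens vessel walls, rose from 346 and 353 to 723 and 691 (log2 change 1.01 ± 0.11, adjusted p = 0.000637). Nnat and Meg3 did not pass without each of the 4 compared libraries in turn (adjusted p 0.059 to 0.169). For imprinted genes the counts were 4 up and 1 down without 1 compared library and 6 to 7 and 7 without 1 knockout library. With 1 compared library fewer, 4 to 5 of growth factor ligands and receptors rose and 1 fell, and with 1 knockout library fewer 10 and 15.

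Wnt pathway genes rose more often than they fell, 14 (42.4%) against 5 (15.2%) of 33, with a median log2 change of 0.36. Over all genes 5.35% rose and 2.72% fell. Among receptors, Fzd1 was at 2051 and 1986 in wildtype, 4777 and 4484 in heterozygous and 4009 and 3791 in knockout (log2 change 1.20 ± 0.09, adjusted p = 0.000118). Among agonists, Rspo2, which raises receptor levels, rose from 399 and 470.4 to 772 and 788 (log2 change 0.85 ± 0.11, adjusted p = 0.00188). Its relative Rspo3 rose from 409 and 462 to 889.5 and 897 (log2 change 1.04 ± 0.11, adjusted p = 0.00051). The ligand Wnt16 rose from 30.2 and 38.7 to 131 and 109 (log2 change 1.78 ± 0.21, adjusted p = 0.00108). Among antagonists, Sfrp1 was at 3334 and 3364 in wildtype, 7619.9 and 7418 in heterozygous and 2224 and 1864 in knockout (log2 change 1.17 ± 0.10, adjusted p = 0.000235). Dkk3 rose from 694 and 802 to 1603 and 1568 (log2 change 1.09 ± 0.12, adjusted p = 0.000637). Rising members thus included both agonists and antagonists. Wnt5a, the main noncanonical ligand, fell from 2908 and 3046 to 1669 and 1635 (log2 change -0.85 ± 0.09, adjusted p = 0.000495). Wisp1 and Wisp2, matricellular proteins of the CCN family, moved in opposite directions: Wisp1 went from 14359 and 14651 to 8415 and 8914 and Wisp2 from 2116 and 2017 to 3749.7 and 3589. In the TGF-beta and BMP group, 8 of 40 rose (20%) and 4 fell (10%). Grem1, a secreted BMP antagonist, was at 32537 and 36147 in wildtype, 57381 and 58395 in heterozygous and 56034 and 55705 in knockout (log2 change 0.76 ± 0.09, adjusted p = 0.00109). The ligand Bmp4 rose from 386 and 361 to 879 and 869 (log2 change 1.23 ± 0.14, adjusted p = 0.000987). The coreceptor Tgfbr3 rose from 845 and 826 to 1616 and 1544 (log2 change 0.92 ± 0.09, adjusted p = 0.000436). Inhba, the activin A subunit, fell from 14447 and 14877 to 6624 and 7468. Without heterozygous replicate 1, Inhba did not pass (adjusted p 0.0511). Counts of Wnt genes without 1 compared library were 7 to 8 up and 2 to 3 down, and without 1 knockout library 15 and 7. When 1 compared library was left out 3 to 5 of TGF-beta and BMP genes rose and 0 to 3 fell, and when 1 knockout library was, 12 and 6.

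Guidance cues moved apart: 8 of 33 axon guidance and Eph genes rose (24.2%) and 7 fell (21.2%), against 5.35% and 2.72% of all genes. Sema3a, a secreted repellent of nerve and endothelial growth, was at 1847 and 1955 in wildtype, 751 and 822 in heterozygous and 2458 and 2599 in knockout (log2 change -1.27 ± 0.09, adjusted p = 0.000145). Sema3e was at 457 and 426 in wildtype, 192 and 221 in heterozygous and 592 and 582 in knockout (log2 change -1.10 ± 0.12, adjusted p = 0.000714). Here the heterozygous libraries were the lowest and the knockout libraries the highest of the 6. Plxna4, a semaphorin receptor, fell from 704 and 679 to 342 and 367 (log2 change -0.96 ± 0.12, adjusted p = 0.00116). Whereas Sema3f rose from 156 and 169 to 368 and 331 (log2 change 1.10 ± 0.13, adjusted p = 0.00117). Of 38 mesenchymal forkhead, homeobox and T-box factors, 10 rose (26.3%) and 2 fell (5.26%). Alx4 was at 478 and 458 in wildtype, 127 and 101 in heterozygous and 109.7 and 105 in knockout (log2 change -2.04 ± 0.15, adjusted p = 0.000147). Foxp2 rose from 725 and 829 to 1348 and 1396 (log2 change 0.82 ± 0.10, adjusted p = 0.00115). The Iroquois gene Irx3 was at 13.9 and 15.7 in wildtype, 61.1 and 57.7 in heterozygous and 421 and 224 in knockout. Irx5 was at 10.1 and 12.5 in wildtype, 26.5 and 30.1 in heterozygous and 165 and 156 in knockout. For both Iroquois genes wildtype, heterozygous and knockout libraries stood in rising order without overlap. Of 25 Hox genes, Hoxc10 alone passed (4% that fell, against 2.72% of all genes). The call on Irx5 was lost without each of the 4 compared libraries in turn (adjusted p 0.0538 to 0.135), and so were those on Hoxc10 without heterozygous replicate 2 or wildtype replicate 1 or 2 (0.101 to 0.124) and Irx3 without heterozygous replicate 1 or 2 (0.0506 to 0.0592). Among axon guidance and Eph genes, 1 to 2 rose and 3 fell without 1 of the compared libraries, and 13 and 8 without 1 knockout library. Leaving out 1 compared library left 2 to 4 of the mesenchymal factors that rose and 1 that fell, and leaving out 1 knockout library gave 17 and 8. For Hox genes the counts were 0 up and 0 to 1 down without 1 compared library and 0 and 2 to 3 without 1 knockout library.

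Interferon-stimulated genes rose together. Of 39 tested, 27 rose (69.2%) against 5.35% of all genes, none fell, and all 39 had a positive log2 change, with a median of 0.98; in all 39 the heterozygous values lay above both wildtype values, against 55% of all genes whose groups did not overlap in either direction. These genes answer to interferons through a complex that holds Stat2 and Irf9 and binds the interferon-stimulated response element. Ifit1, which binds foreign RNA, was at 163 and 142 in wildtype, 640.5 and 582 in heterozygous and 88.8 and 75.8 in knockout, 4.01-fold the wildtype level (log2 change 2.00 ± 0.15, adjusted p = 0.000145). Isg15, a ubiquitin-like modifier, was at 296 and 267 in wildtype, 774 and 792 in heterozygous and 95.2 and 74.5 in knockout (log2 change 1.48 ± 0.15, adjusted p = 0.000484). Ifit3 was at 249 and 235 in wildtype, 621 and 539 in heterozygous and 183 and 169.9 in knockout (log2 change 1.25 ± 0.13, adjusted p = 0.00051). Oasl2, of the oligoadenylate synthetase family, was at 91.3 and 76.3 in wildtype, 343 and 319 in heterozygous and 32.6 and 35.4 in knockout (log2 change 1.97 ± 0.17, adjusted p = 0.000269). In each the order of the libraries was knockout, wildtype, heterozygous from low to high, without overlap. Rtp4 rose from 65.8 and 56.4 to 216 and 256 (log2 change 1.93 ± 0.20, adjusted p = 0.000495). Parp14 rose from 214 and 203 to 547 and 620.4 (log2 change 1.48 ± 0.13, adjusted p = 0.000288). The transducer Stat2 rose from 598 and 629 to 1098 and 1078 (log2 change 0.83 ± 0.10, adjusted p = 0.00146). Irf9 went from 633 and 621 to 861 and 883 and Irf7, which amplifies the response, from 198 and 134 to 405 and 421. Bst2, tetherin, rose from 856 and 782 to 1787 and 1596. Irf9 did not pass without each of the 4 compared libraries in turn (adjusted p 0.179 to 0.216), nor did Irf7 without heterozygous replicate 1 or 2 or wildtype replicate 2 (0.0907 to 0.106) and Bst2 without heterozygous replicate 1 (0.0562). With 1 compared library fewer, 9 to 13 of the interferon genes rose and 0 fell, and with 1 knockout library fewer 33 and 0.

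Stretches of 4 interferon gene promoters are shown because they carry the core of the interferon-stimulated response element, GAAANNGAAA, on either strand (capitals; overlapping matches run together). They come from RefSeq on GRCm38.p6, read in the direction of the gene. Isg15 lies at chr4:156200845-156200926, minus strand, 108 to 27 bases before the start, with 3 matches. Ifit1 lies at chr19:34640755-34640843, plus strand, and Ifit3 at chr19:34583343-34583446, plus strand, with 2 matches each. Bst2 lies at chr8:71537557-71537632, minus strand, with 2 matches.
Isg15: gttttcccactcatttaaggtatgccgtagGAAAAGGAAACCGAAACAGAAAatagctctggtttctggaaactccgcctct
Ifit1: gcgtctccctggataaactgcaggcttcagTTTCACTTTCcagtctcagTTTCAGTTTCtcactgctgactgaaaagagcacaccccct
Ifit3: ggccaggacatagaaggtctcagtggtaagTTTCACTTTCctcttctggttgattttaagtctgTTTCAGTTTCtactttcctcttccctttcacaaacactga
Bst2: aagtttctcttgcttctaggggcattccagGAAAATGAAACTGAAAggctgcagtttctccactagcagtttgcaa
The core was found in 14 of 22 interferon genes that rose and had a RefSeq window (63.6%), against 361 of 9404 tested genes with a window (3.84%). Among all tested interferon genes with a window, risen or not, 16 of 29 held the core (55.2%). Of the 27 that rose, 22 matched a window by symbol. Among 6 complement and acute phase genes that rose and had a window, 0 held it, and among 14 such macrophage markers 1 did, Ctss. It was also held by 3 of 8 such MHC class I genes (37.5%), B2m, Erap1 and H2-T23, and by 1 of 8 such proteases, Mmp13. A match is a run of letters, not a shown binding site.

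Antigen presentation by MHC class I is a common interferon response. Of 17 such genes 8 rose (47.1%, against 5.35% of all genes) and none fell. H2-K1, a class I heavy chain, was at 1116 and 1044 in wildtype, 2304 and 1998 in heterozygous and 726 and 628 in knockout (log2 change 0.99 ± 0.11, adjusted p = 0.000913). H2-D1 rose from 2039 and 1912 to 3729.6 and 3334 (log2 change 0.84 ± 0.10, adjusted p = 0.00129). The peptide loader Tapbp rose from 1559.8 and 1498 to 2834 and 2642 (log2 change 0.84 ± 0.10, adjusted p = 0.00113). Beta 2 microglobulin, B2m, rose from 10034 and 9987 to 15303 and 15112. Complement and acute phase genes rose in 13 of 18 cases (72.2%), with none that fell and a median log2 change of 1.17. Hp, haptoglobin, which binds free haemoglobin, was at 93.7 and 98.3 in wildtype, 755 and 571 in heterozygous and 45.3 and 35.4 in knockout, 6.91-fold the wildtype level (log2 change 2.76 ± 0.19, adjusted p = 0.000118). C3, the hub of the complement cascade, was at 141 and 135 in wildtype, 564 and 614 in heterozygous and 47.1 and 44 in knockout (log2 change 2.09 ± 0.14, adjusted p = 0.000118). C4b was at 39.5 and 26.1 in wildtype, 224 and 198 in heterozygous and 18.1 and 20.8 in knockout (log2 change 2.68 ± 0.25, adjusted p = 0.000332). Lbp, which hands bacterial lipopolysaccharide to its receptor, was at 31.7 and 19.9 in wildtype, 189 and 172 in heterozygous and 21.8 and 17.1 in knockout (log2 change 2.79 ± 0.27, adjusted p = 0.000436). The pentraxin Ptx3 was at 194 and 187 in wildtype, 848 and 824 in heterozygous and 196 and 257 in knockout (log2 change 2.13 ± 0.15, adjusted p = 0.000118). In these 5 genes the heterozygous libraries were more than 3 times above every other library. C1s, C1ra, Serping1 and the copper carrier Cp rose too, with log2 changes of 1.24, 1.41, 1.03 and 2.19. C1ra and C1rb, C4b, Ifit3 and the class I genes have near-identical copies, so that their own share of reads is uncertain. Without each of the 4 compared libraries in turn, B2m did not pass (adjusted p 0.17 to 0.208). Counts of MHC class I genes without 1 compared library were 3 to 4 up and 0 down, and without 1 knockout library 12 and 0. When 1 compared library was left out 11 to 12 of complement and acute phase genes rose and 0 fell, and when 1 knockout library was, 14 and 0.

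Of 40 chemokines, cytokines and receptors, 13 rose (32.5%) and 2 fell (5%), against 5.35% and 2.72% of all genes. Ccl6 was at 158 and 174 in wildtype, 692 and 756 in heterozygous and 31.7 and 36.7 in knockout (log2 change 2.12 ± 0.15, adjusted p = 0.000118). Ccl9 was at 344 and 394 in wildtype, 1101 and 1143 in heterozygous and 134 and 119.8 in knockout (log2 change 1.61 ± 0.12, adjusted p = 0.000162). Ccl4 rose from 65 and 60.6 to 186 and 176 (log2 change 1.51 ± 0.19, adjusted p = 0.00153). These 3 chemokines draw monocytes and other leukocytes. Il1rn, which blocks the interleukin 1 receptor, was at 294 and 291 in wildtype, 844 and 794 in heterozygous and 465 and 293 in knockout (log2 change 1.48 ± 0.19, adjusted p = 0.00146). Ptgs2 and Nfkbiz, an inducer of inflammatory genes, fell, the latter from 1047 and 1008 to 664 and 606. The call on Nfkbiz was lost without heterozygous replicate 2 or wildtype replicate 1 or 2 (adjusted p 0.0539 to 0.0811). Among chemokines, cytokines and receptors, 4 rose and 1 to 2 fell without 1 of the compared libraries, and 17 to 18 and 8 to 9 without 1 knockout library.

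Macrophage and leukocyte markers moved with these groups. Of 26 tested, 21 rose (80.8%) and none fell, against 5.35% and 2.72% of all genes. Their median log2 change was 0.86, against 0.00 over all genes. Mrc1, the mannose receptor of resident macrophages, was at 606 and 642 in wildtype, 1786 and 1864 in heterozygous and 256 and 275 in knockout (log2 change 1.55 ± 0.10, adjusted p = 0.000118). Emr1, which encodes F4/80, was at 769 and 781 in wildtype, 2101 and 1974 in heterozygous and 280.1 and 347 in knockout (log2 change 1.39 ± 0.12, adjusted p = 0.000245). Csf1r, the receptor for macrophage colony-stimulating factor, was at 2171 and 2084 in wildtype, 3848 and 3849 in heterozygous and 1081 and 1003 in knockout (log2 change 0.86 ± 0.09, adjusted p = 0.00051). Itgam, an integrin of myeloid cells, rose from 846 and 811 to 1673 and 1784 (log2 change 1.06 ± 0.10, adjusted p = 0.000329). Cd14, a coreceptor for lipopolysaccharide, rose from 373 and 368 to 839 and 769 (log2 change 1.11 ± 0.14, adjusted p = 0.00146). In each of them knockout, wildtype and heterozygous libraries stood in rising order without overlap. The 5 that did not pass were Cx3cr1, Aif1, Lyve1, Pf4 and Csf3r, with log2 changes of -0.40, 0.37, -1.09, 1.30 and 2.06. The summed level of the list, including members too low to be tested, was 41231 and 41678 in wildtype, 83292 and 78286 in heterozygous and 16920.0 and 16393 in knockout. The ratio between heterozygous and wildtype was 1.95. The like ratio was 1.71 for the interferon genes and 2.28 for complement and acute phase genes. The largest single folds were 6.99 (Lbp) and 6.91 (Hp) on the complement list and 2.92 (Mrc1) among macrophage markers that passed. Marco, a macrophage receptor outside that list, was 6.53-fold the wildtype level. No member of the macrophage list was at 0 in all libraries. The part of macrophages in the interferon, complement, MHC and chemokine results was not tested. Leaving out 1 compared library left 8 to 12 of macrophage and leukocyte markers that rose and 0 that fell, and leaving out 1 knockout library gave 23 and 1.

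**Figure D4:**
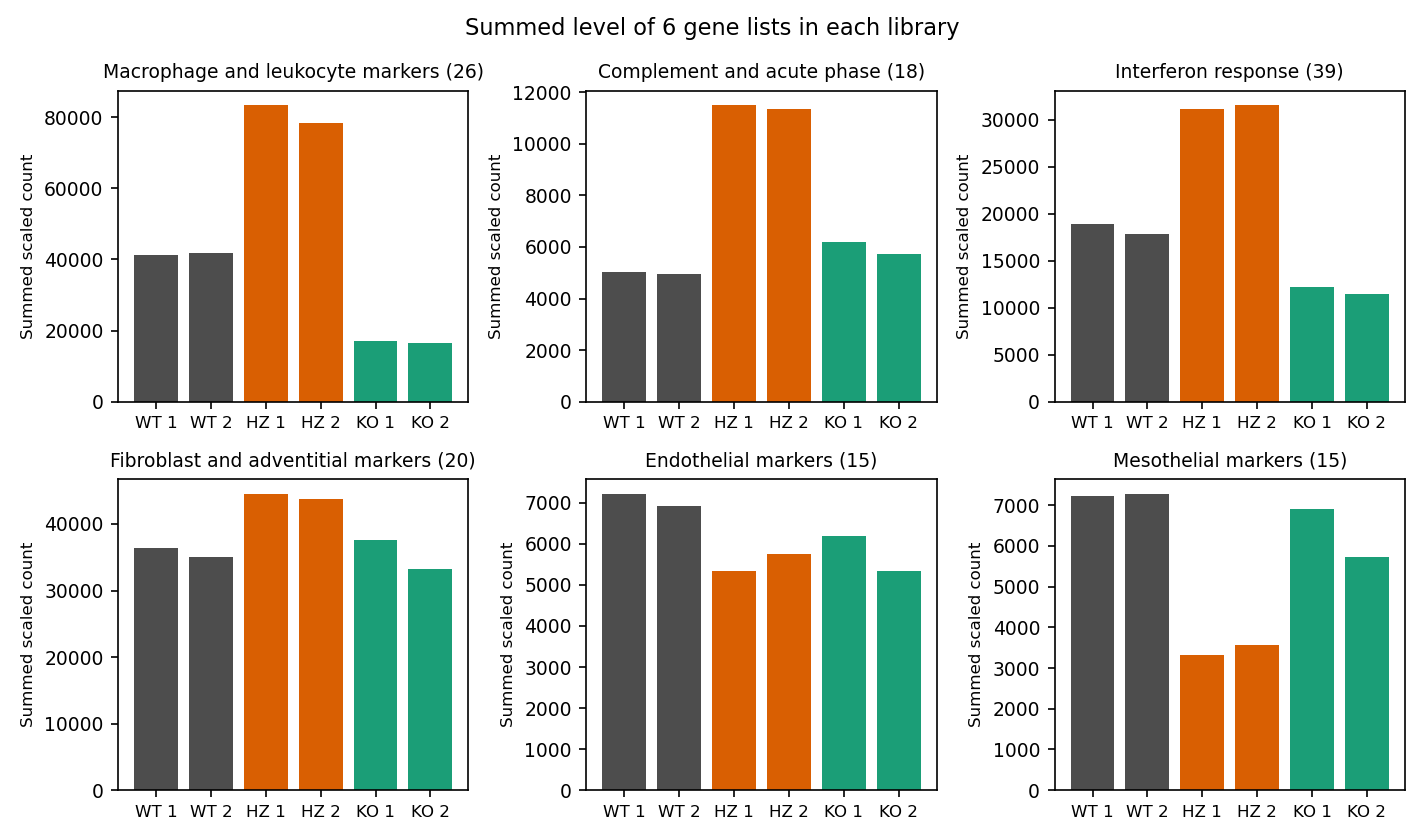
Summed scaled counts (y axis, from 0) of 6 gene lists in each library, with the number of tested genes in brackets. The sums also hold listed genes too low to be tested. WT is wildtype, HZ heterozygous and KO knockout, 1 and 2 are replicates. Macrophage, complement and interferon sums are highest in both heterozygous libraries, and the mesothelial sum is lowest there.

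Mesothelial markers moved the other way: 12 of 15 fell (80%) against a background of 2.72%, none rose, and the median log2 change was -1.15. Mesothelium is the cell sheet that lines body cavities and lies near the aorta. Msln, mesothelin, was at 653 and 707 in wildtype, 265 and 298 in heterozygous and 623 and 651 in knockout (log2 change -1.27 ± 0.11, adjusted p = 0.000288). The uroplakin Upk1b was at 1129 and 1207 in wildtype, 338 and 393 in heterozygous and 747 and 705 in knockout (log2 change -1.68 ± 0.11, adjusted p = 0.000118). Upk3b, of the same family, was at 1068 and 1047 in wildtype, 376 and 435 in heterozygous and 871 and 667 in knockout (log2 change -1.38 ± 0.14, adjusted p = 0.000495). Lrrn4 fell from 771 and 822 to 248 and 304 (log2 change -1.53 ± 0.15, adjusted p = 0.000405). The keratin Krt18 fell from 282 and 297 to 127 and 106 (log2 change -1.31 ± 0.15, adjusted p = 0.000817). Wt1, a transcription factor of mesothelium, fell from 441 and 440.0 to 195 and 201. The summed level of the list, including members too low to be tested, was 7212 and 7278 in wildtype, 3328 and 3557 in heterozygous and 6899 and 5736 in knockout. In the heterozygous libraries it was 47.5% of wildtype. The Wnt agonist Rspo1, among the 15 largest falls, is also on this list. Endothelial markers did not move together: Emcn and Flt1 fell and Kdr and Eng rose among 15 tested (13.3% each way, against 2.72% and 5.35% of all genes). The sum of the list, including members too low to be tested, was 7218 and 6929 in wildtype, 5339.9 and 5758 in heterozygous and 6189 and 5334 in knockout. A large part of this sum was Flt1 (log2 change -1.26), whose counts are given with the growth factors above. Between wildtype and heterozygous, Flt1 fell by more scaled counts than the whole sum did. Cdh5 did not pass (log2 change 0.31 ± 0.38, adjusted p = 0.796), and 11 of 26 listed endothelial markers did not reach the level to be tested. The part of mesothelial and endothelial cells in the falls of Rspo1, Emcn and Flt1 was not tested. Kdr and Eng did not pass without each of the 4 compared libraries in turn (adjusted p 0.0568 to 0.16), nor did Rspo1 without wildtype replicate 1 or 2 (0.0516 to 0.0551) and Wt1 without heterozygous replicate 1 (0.0512). For mesothelial markers the counts were 0 up and 6 to 7 down without 1 compared library and 0 and 12 without 1 knockout library. With 1 compared library fewer, 0 of endothelial markers rose and 2 fell, and with 1 knockout library fewer 4 and 3.

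Of 41 genes of DNA replication and S phase, limma passed 0, with 2 higher and 2 lower at an unadjusted p under 0.05; edgeR and DESeq2 also passed 0, and leaving out 1 knockout library gave 2 that rose and 2 that fell. Over all genes 8.06% passed, and 18.5% were under an unadjusted p of 0.05 in limma. Of the 41 replication genes, 30 had a positive log2 change, with a median of 0.07. Of 41 mitosis genes, 34 had a positive log2 change, with a median of 0.10. Nusap1, a spindle protein, alone passed among the mitosis genes, from 316 and 332 to 447 and 492. None of 44 ribosomal protein genes, 53 nuclear genes of oxidative phosphorylation or 13 mitochondrial transcripts passed in limma, edgeR or DESeq2, and 0 were under an unadjusted p of 0.05 in limma. Their median log2 changes were -0.03, 0.01 and -0.07, and the whole range of the oxidative phosphorylation genes was a fold of 0.884 to 1.13. Of 34 genes of hypoxia and glycolysis, 5 fell (14.7%, against 2.72% of all genes) and none rose in limma (2 higher and 7 lower at an unadjusted p under 0.05; edgeR 5 and DESeq2 3 that fell): the glucose transporter Slc2a3 was at 252 and 257 in wildtype, 117 and 115 in heterozygous and 176 and 224 in knockout (log2 change -1.13 ± 0.15, adjusted p = 0.00216). Hk2, Egln3 and Ndrg1 went from 2865 and 2902 to 2219 and 2345, from 311 and 278 to 202 and 185 and from 304 and 297 to 214 and 197. Without each of the 4 compared libraries in turn, Nusap1, Hk2, Egln3 and Ndrg1 did not pass (adjusted p 0.116 to 0.4). Counts of mitosis genes without 1 compared library were 0 up and 0 down, and without 1 knockout library 3 and 0. When 1 compared library was left out 0 of hypoxia and glycolysis genes rose and 2 fell, and when 1 knockout library was, 1 and 8.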

How the data were processed

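RNA sequencing of smooth muscle from descending aorta gave 6 libraries, 2 each of wildtype, heterozygous and knockout. The authors deposited 1 table with a signal per gene and library, which is the number of reads divided by 1 size factor per library. Division by the smallest step of each library gave whole reads for 100% of values within 0.001. The table also holds gene lengths, the authors' deposited log2 ratio of heterozygous and wildtype, whose sign is that of wildtype over heterozygous and was turned here, and the authors' deposited adjusted p-value. The submitters' processing notes name TopHat2 2.0.4, HTSeq 0.5.4p3, DESeq 1.16.0 and build mm9. Their settings, the strand setting and the annotation release are not given in the sources used here, so reads of overlapping, antisense or near-identical genes may be shared.

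Genes with a scaled count of 10 or more in 2 or more libraries were kept. limma 3.58.1 in R 4.3.3 was fitted to log2(scaled count + 1), with a trend in the variance prior, on all 6 libraries at once. Adjusted p values are Benjamini-Hochberg over the 15781 genes fitted, and 665 genes on chromosomes X and Y were then left out. A fold change on this scale understates the change of low genes. With 17323962 to 28123670 reads in genes, depth limits mainly the low genes. edgeR 4.0.16 and DESeq2 1.42.0, run on the recovered reads, were alternatives.

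Libraries with the same replicate number deviated together from their group means (correlations of 0.168, 0.199 and 0.139 between the 3 pairs of groups). The main fit did not use this pairing, so that the SE and adjusted p values given are unpaired. A fit with the replicate number as a block was an alternative, and 1508 genes passed in it against 1219. The labels do not say what a number stands for. Replicate 1 was the deeper library in each group.

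Genes are named if they are Jag1 or Sox9, if they are among the 15 largest log2 changes in each direction or the 8 largest differences in level (genes that passed, in groups that do not overlap, the higher with a mean of 50 or more), or if they are list members that passed or were among the 4 smallest p values of their list. Some genes that met the rule are not reported here. Other named genes were chosen after their values were seen. The genes, the 45 lists and the comparison were chosen with earlier results of these data known. Promoter windows and the gene order around Jag1 are those of RefSeq and GRCm38, since no coordinates on mm9 were used.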

Additional observations from a re-analysis of the deposited data

How the results depend on the processing

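The count of genes that passed was within 1.5 times of 1219 under 11 alternatives, from 833 without a trend in the variance prior to 1508 with the replicate block, which kept all 1219 and lost no call on a named gene. The quantile normalization gave 61.7% of calls as higher against 66.3%. The 833 without the trend were 579 higher and 254 lower. A fit of heterozygous and wildtype libraries only passed 2906, 1692 higher and 1214 lower, and all 1219 were among them. Leaving out 1 library gave 301 to 2889 in all, 202 to 1687 higher and 90 to 1202 lower. The low ends came from leaving out a heterozygous or wildtype library, which leaves that group with 1 library that is assumed to vary like the others. The high ends came from leaving out a knockout library, whose pair had the widest spread. Of 330 named or listed genes that passed, 114 lost the call without the variance trend, 27 without the filter, 19 in DESeq2, 1 in edgeR and 179 to 203 without a heterozygous or wildtype library, and 0 changed direction in any alternative.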

Other observations

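Of 7 adipose markers tested, 4 rose (57.1%, against 5.35% of all genes) and none fell, with a median log2 change of 0.56. Lpl, the lipase that frees fatty acids from lipoproteins, was at 473 and 564 in wildtype, 1835 and 1924 in heterozygous and 328 and 409 in knockout (log2 change 1.86 ± 0.14, adjusted p = 0.000135). Fabp4, a fatty acid carrier, rose from 132 and 178 to 350.3 and 332 (log2 change 1.15 ± 0.16, adjusted p = 0.00229). The fatty acid receptor Cd36 rose from 272 and 274 to 537 and 479, and the transcription factor Cebpa from 325 and 278 to 463 and 427. Macrophages also make Lpl, Fabp4 and Cd36, and the summed macrophage markers moved with them by a ratio of 1.95; their part in these rises was not tested. The calls on Cd36 and Cebpa were lost without each of the 4 compared libraries in turn (adjusted p 0.0697 to 0.347), and so was that on Fabp4 without heterozygous replicate 1 (0.0566). Among adipose markers, 1 to 2 rose and 0 fell without 1 of the compared libraries, and 6 and 0 without 1 knockout library.

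Further lists are given by their calls in limma, against 5.35% of all genes that rose and 2.72% that fell. In the neural and Schwann list, 2 of 11 rose (18.2%), S100b and the transcription factor Hand2, with log2 changes of 1.42 and 1.51, and the tubulin gene Tubb3 fell, with -0.52. In the skeletal and cardiac muscle list, 2 of 7 fell (28.6%): Acta1, skeletal actin, from 8551 and 7273 to 4961 and 4801, and Tnnt2, cardiac troponin T, from 57.3 and 43.9 to 22.8 and 26.5. Cldn3, a tight junction gene, was the only 1 of 4 epithelial and lung markers to pass, with a log2 change of -1.93, and 0 of 2 red cell markers passed (1 was higher at an unadjusted p under 0.05; edgeR and DESeq2 passed 0). In retinoic acid metabolism and binding, 2 of 14 fell (14.3%): Crabp2, a carrier of retinoic acid, from 286 and 299 to 213 and 173, and Aldh1a3, which makes it, from 1105 and 1096 to 748 and 731. Of 8 Hedgehog genes the coreceptor Boc alone passed, with a log2 change of 0.62. Of 26 p53 targets, Fas and Sesn1 rose (0.70 and 0.61), Plk2 fell (-0.52), and Pmaip1, a trigger of apoptosis, was at 6195 and 6628 in wildtype, 3913 and 3859.5 in heterozygous and 5529 and 6228 in knockout (log2 change -0.72 ± 0.09, adjusted p = 0.00143). Of 31 immediate early genes, Fos, Atf3 and Rgs2 rose (0.65, 0.88 and 0.80) and Dusp5 fell (-0.74). In the unfolded protein response 2 of 26 fell, Trib3 and Asns (-0.63 and -0.41), and of 20 heat shock genes Hspb1 alone passed. Of 21 genes of cholesterol synthesis and uptake, Cyp51 and Sc4mol rose (0.37 and 0.43). S100b, Hand2, Tubb3, Tnnt2, Cldn3, Crabp2, Aldh1a3, Boc, Fas, Sesn1, Plk2, Fos, Atf3, Rgs2, Trib3, Asns, Cyp51, Sc4mol and Hspb1 did not pass without each of the 4 compared libraries in turn (adjusted p 0.0673 to 0.37), nor did Acta1 and Dusp5 without heterozygous replicate 1 or 2 or wildtype replicate 1 (0.0538 to 0.0782). Leaving out 1 compared library left 0 of neural and Schwann markers that rose and 0 that fell, and leaving out 1 knockout library gave 3 and 2. For skeletal and cardiac muscle markers the counts were 0 up and 0 to 1 down without 1 compared library and 0 and 2 without 1 knockout library. With 1 compared library fewer, 0 of retinoic acid genes rose and 0 fell, and with 1 knockout library fewer 3 and 2. Counts of p53 targets without 1 compared library were 0 up and 1 down, and without 1 knockout library 2 and 5. When 1 compared library was left out 0 of immediate early genes rose and 0 to 1 fell, and when 1 knockout library was, 10 and 3. Without 1 compared library, 0 of the cholesterol genes rose, and without 1 knockout library 11 did. In the unfolded protein response, heat shock, Hedgehog and epithelial lists 0 passed without 1 compared library. Without 1 knockout library, 3 genes of the unfolded protein response fell and 1 rose, 3 heat shock genes fell and 3 rose, 2 Hedgehog genes rose and 2 epithelial markers fell.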
